A study of Arabidopsis thaliana with 23 samples.

Results

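Across the 9 RNA-seq libraries of Arabidopsis axillary tissue, 35 of 32833 genes had a much lower transcript level both in the brc1-2 mutant and after decapitation than in intact wild type (WT). They were chosen by their values in these libraries. Counts were scaled to a library total of 1000000 (CPM), and L is the log2 ratio of group mean CPM after adding 0.25 CPM to each mean. A gene was taken when L was at most -1.5 in both intact brc1-2 and decapitated WT against intact WT, when its mean was at least 1 CPM in intact WT, and when L on rac-GR24 against DMSO in seedlings was below 1 or the gene was not in the seedling table. Their lower levels in both groups are therefore a description of the choice and carry no test.

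All plants were of the Col-0 background and were grown at 22 °C with 16 h of light and 8 h of dark. Axillary tissue, which comprised axillary buds together with the leaf axils of the rosette below them, came from intact WT, from intact plants of the mutant brc1-2, and from WT plants whose main shoot had been cut off below the lowest cauline node once the inflorescence was about 1 cm long. Whole seedlings of WT were kept for 7 days on 2.5 µM rac-GR24, a synthetic strigolactone analogue, or on its solvent DMSO. Each group had 3 libraries, and the labels do not say whether these came from separate plants, so p-values measure only the spread between these samples. The labels give no interval between decapitation and harvest. Total counts ran from 47462342 to 61228766 per axillary library and from 31209344 to 44442493 per seedling library.

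BRC1 is a TCP transcription factor made in axillary buds that holds back their outgrowth. Strigolactones from the plant act upstream of it, and the growing main shoot keeps buds at rest, so that its removal releases them. Downstream of BRC1 in Arabidopsis, the HD-ZIP factors HB21, HB40 and HB53 act on NCED3, whose product sets the rate of abscisic acid synthesis, and resting buds are known for transcripts of abscisic acid response and of dormancy. BRC1 itself was at 7.75, 6.5 and 7.79 CPM in intact WT, at 0.0396, 0.0713 and 0.0327 CPM in brc1-2, and at 1.77, 1.75 and 1.62 CPM after decapitation. It was past both axillary limits but is no member, because its L on rac-GR24 was 4.13.

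The limits left a small share of genes. Of 18649 genes with at least 1 CPM in intact WT, 157 (0.842%) had an L of at most -1.5 in brc1-2 and 190 (1.02%) after decapitation. Past both were 50 genes, which is 31.8% of the first list and 26.3% of the second; the comparisons share their intact WT libraries. The rac-GR24 limit then took out 15 of the 50, among them BRC1, HB21 (L on rac-GR24 1.66), the PP2C gene HAI1 (1.39), the protective protein gene LEA4-5 (1.16), KIN2 (1.23) and the lipid transfer protein genes LTP3 (2.44) and LTP4 (1.97). The 35 that remained are thus the genes that were low in both kinds of axil without an L of 1 or more on rac-GR24 in seedlings.

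Levels of the 35 members in brc1-2 ran from 1.28% to 34% of those in intact WT, with a median of 16.8%. After decapitation they ran from 4.28% to 34%, with a median of 15.4%. The median L of the members was -2.16 in brc1-2 and -2.12 after decapitation, against -0.0033 and -0.0064 over all genes of at least 1 CPM. All 3 intact WT libraries were above all 6 other axillary libraries for 35 of 35 members, a separation that the rule itself favours and that 25.7% of all genes of at least 1 CPM also showed. The lowest intact WT library exceeded the highest of the other 6 by between 1.67-fold, for the plastid gene ATCG00020, and 10.4-fold, for AT3G02480. Intact WT libraries were close to each other, with a median coefficient of variation of 5.09% over members, against 17.6% in brc1-2 and 16.9% after decapitation, where counts were lower.

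**Figure D1:**
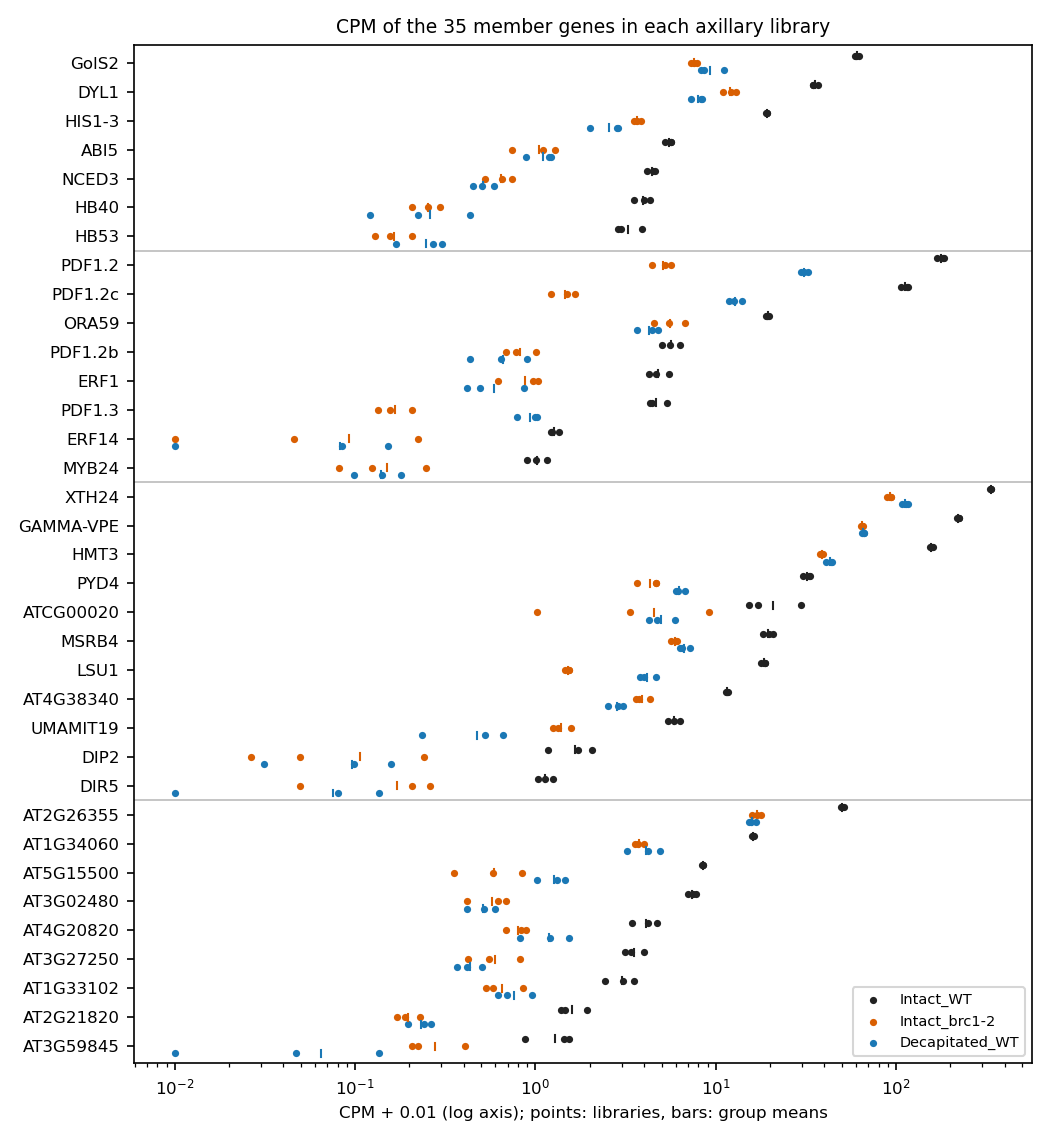
CPM of each member in each of the 9 axillary libraries, on a log axis after adding 0.01 CPM; points are libraries, vertical bars are means of the 3 libraries of a group, and grey lines part the role groups (dormancy and abscisic acid, jasmonate with ethylene and defensins, metabolism with transport and wall, and genes without a symbol). For each of the 35 members the 3 intact WT points lie to the right of all others, and the orange brc1-2 and blue decapitated points lie far apart for PDF1.2, PDF1.2c, PDF1.3, LSU1 and UMAMIT19.

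The HD-ZIP genes HB40 and HB53 stood among the members with the deepest losses. HB40 (AT4G36740; TAIR10 chromosome 4, 17314453 to 17316441, minus strand) had 4.29, 3.99 and 3.498 CPM in intact WT, 0.198, 0.285 and 0.245 CPM in brc1-2, and 0.112, 0.212 and 0.421 CPM after decapitation. Its level was thus 6.18% of WT in brc1-2 and 6.33% after decapitation, with the libraries of these groups interleaved. HB53 (AT5G66700; chromosome 5, 26634275 to 26635885, plus strand) had 2.85, 3.87 and 2.98 CPM in intact WT, 0.119, 0.196 and 0.147 CPM in brc1-2, and 0.261, 0.159 and 0.295 CPM after decapitation. Between 6 and 16 counts stood behind each brc1-2 library for these genes, so their low levels are known less precisely than their high ones.

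NCED3 (AT3G14440; chromosome 3, 4831286 to 4834015, minus strand, a gene of a single exon) went with them. Its intact WT libraries were at 4.49, 4.16 and 4.58 CPM, those of brc1-2 at 0.514, 0.641 and 0.735 CPM, and those of decapitated WT at 0.577, 0.495 and 0.443 CPM. The low groups overlap, at 14.3% and 11.4% of the WT mean. ABI5 (AT2G36270; chromosome 2, 15204659 to 15207636), a bZIP factor of abscisic acid response, had 5.64, 5.61 and 5.19 CPM in intact WT, 0.732, 1.27 and 1.09 CPM in brc1-2, and 0.875, 1.202 and 1.18 CPM after decapitation, and its low groups overlap as well. HIS1-3 (AT2G18050), a linker histone whose gene is induced by drought and abscisic acid, was tighter: 19.0, 19.3 and 19.2 CPM in intact WT, 3.64, 3.85 and 3.51 CPM in brc1-2, and 2.85, 2.83 and 2.00 CPM after decapitation, with each decapitated library under each brc1-2 library.

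GolS2 (AT1G56600; chromosome 1, 21207537 to 21209635) encodes a galactinol synthase, the enzyme that commits carbon to the raffinose family of protective sugars. It had 62.2, 60.2 and 58.8 CPM in intact WT, 7.24, 7.54 and 7.84 CPM in brc1-2, and 8.62, 11.1 and 8.22 CPM after decapitation. Its low groups do not overlap, but only decapitated library 2 stood well above the brc1-2 range. DYL1 (AT1G28330, also known as DRM1, a marker of dormant buds) lay near the limit in brc1-2, with 36.8, 34.7 and 34.5 CPM in intact WT, 12.1, 10.99 and 12.9 CPM in brc1-2, and 7.29, 8.31 and 8.39 CPM after decapitation. Every decapitated library was below every brc1-2 library for it.

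The second group of named members belongs to the branch of defence that jasmonate and ethylene control together. ORA59 and ERF1 are AP2/ERF factors that bind the promoters of plant defensin genes, ERF14 is a factor of the same family, and PDF1.2, PDF1.2b, PDF1.2c and PDF1.3 encode such defensins, small antifungal peptides. The 3 factors and 4 defensin genes were members. The defensin genes are close copies, and reads may have been split between them, so the level of any single copy is uncertain.

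PDF1.2 (AT5G44420; chromosome 5, 17906968 to 17907638, minus strand) had 183, 183 and 169 CPM in intact WT, 5.24, 5.63 and 4.39 CPM in brc1-2, and 31.0, 29.6 and 32.5 CPM after decapitation. PDF1.2c (AT5G44430; chromosome 5, 17908850 to 17909507, minus strand) had 114, 117 and 107 CPM in intact WT, 1.64, 1.48 and 1.21 CPM in brc1-2, and 11.9, 13.95 and 12.6 CPM after decapitation. For both, the 3 groups stood apart in the same order, with brc1-2 lowest, at 2.85% and 1.28% of WT, and decapitated WT between, at 17.4% and 11.4%. PDF1.3 (AT2G26010) had the same order at a lower level, with 4.39, 5.35 and 4.29 CPM in intact WT, 0.198, 0.125 and 0.147 CPM in brc1-2, and 0.782, 0.990 and 1.01 CPM after decapitation. PDF1.2b (AT2G26020) did not, with 6.33, 5.57 and 4.99 CPM in intact WT, 0.673, 0.766 and 0.996 CPM in brc1-2, and 0.633, 0.424 and 0.885 CPM after decapitation, where the low groups overlap.

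ORA59 and ERF1 differed less between the low groups than PDF1.2, PDF1.2c and PDF1.3 did. ORA59 (AT1G06160; chromosome 1, 1882907 to 1883992) had 19.0, 19.8 and 19.3 CPM in intact WT, 5.52, 6.70 and 4.54 CPM in brc1-2, and 4.41, 4.77 and 3.65 CPM after decapitation. ERF1 (AT3G23240; chromosome 3, 8295617 to 8296604) had 5.46, 4.25 and 4.66 CPM in intact WT, 0.613, 0.962 and 1.03 CPM in brc1-2, and 0.856, 0.407 and 0.485 CPM after decapitation. In each the low groups overlap, and the means after decapitation were the lower ones. ERF14 (AT1G04370) was a scarce transcript, with 61, 70 and 73 counts in the intact WT libraries, 0, 2 and 13 in brc1-2 and 4, 8 and 0 after decapitation. MYB24 (AT5G40350), an R2R3-MYB factor that jasmonate controls in stamens, had 45, 66 and 54 counts in intact WT, 12, 4 and 7 in brc1-2 and 7, 5 and 8 after decapitation. MYB24 shares 46.6% of its exon bases with AT5G40348 on the opposite strand, and the sources used here do not say if strand was used in counting. It is thus not known how reads on the shared bases were assigned.

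The third group holds enzymes, a transporter and cell wall proteins, and among them the most abundant members. Per length, as CPM over the exon length in kilobases (RPKM), the highest levels in intact WT were those of PDF1.2 at 308, XTH24 at 276, PDF1.2c at 205, GAMMA-VPE at 104 and HMT3 at 96.7 RPKM, and the median member was at 7.54 RPKM. XTH24 (AT4G30270; chromosome 4, 14819192 to 14820595) encodes a xyloglucan endotransglucosylase/hydrolase, an enzyme that remodels the cell wall, and had 335, 337 and 329.8 CPM in intact WT, 93.8, 93.8 and 89.5 CPM in brc1-2, and 113, 108 and 116 CPM after decapitation. Its 3 groups did not overlap. GAMMA-VPE (AT4G32940; chromosome 4, 15900270 to 15903523), a vacuolar cysteine protease that processes other vacuolar proteins, had 224, 224 and 216 CPM in intact WT, 64.5, 65.2 and 64.1 CPM in brc1-2, and 66.7, 66.4 and 64.4 CPM after decapitation. The means of the low groups, 64.6 and 65.8 CPM, were nearly equal, at 29.2% and 29.8% of WT.

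HMT3 (AT3G22740), a homocysteine S-methyltransferase that makes methionine, had 158, 153 and 159.5 CPM in intact WT, 37.9, 39.1 and 39.0 CPM in brc1-2, and 43.3, 41.0 and 44.2 CPM after decapitation. LSU1 (AT3G49580; chromosome 3, 18374908 to 18375940), named for its response to low sulfur, had 18.9, 17.9 and 18.8 CPM in intact WT, 1.44, 1.53 and 1.52 CPM in brc1-2, and 4.67, 3.98 and 3.77 CPM after decapitation. For both, each decapitated library was above each brc1-2 library, by a small margin for HMT3 and a large one for LSU1. MSRB4 (AT4G04810), a methionine sulfoxide reductase that repairs oxidised methionine, had 19.6, 20.7 and 18.3 CPM in intact WT, 6.01, 5.67 and 6.06 CPM in brc1-2, and 7.15, 6.29 and 6.47 CPM after decapitation, with its low groups just apart.

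PYD4 (AT3G08860; chromosome 3, 2696199 to 2699420), an aminotransferase of pyrimidine breakdown, had 32.8, 33.1 and 30.3 CPM in intact WT, 4.63, 3.64 and 4.64 CPM in brc1-2, and 6.70, 6.14 and 6.01 CPM after decapitation, again without overlap of the low groups. UMAMIT19 (AT1G21890; chromosome 1, 7682584 to 7685662), of a family of amino acid transporters, went the other way, with 5.42, 5.82 and 6.32 CPM in intact WT, 1.56, 1.319 and 1.24 CPM in brc1-2, and 0.223, 0.513 and 0.653 CPM after decapitation. It was thus at 23.5% of WT in brc1-2 and at 7.92% in decapitated axils. DIR5, a dirigent protein gene, and DIP2 were scarce, at 1.126 and 1.64 CPM on average in intact WT. AT4G38340, which the RefSeq gene table lists with the synonym NLP3 (NIN-like protein 3, of a family of nitrate-responsive factors), had 11.6, 11.4 and 11.5 CPM in intact WT, 4.29, 3.60 and 3.76 CPM in brc1-2, and 2.87, 3.06 and 2.53 CPM after decapitation, so that each decapitated library was the lower.

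The plastid gene ATCG00020 had the widest spread among intact WT libraries. The RefSeq gene table lists psbA, which encodes the D1 protein of photosystem II, at these plastid coordinates (383 to 1444, minus strand). Its intact WT libraries were at 17.2, 15.4 and 29.7 CPM, those of brc1-2 at 1.01, 3.31 and 9.20 CPM, and those of decapitated WT at 4.73, 4.24 and 5.96 CPM, and its coefficient of variation in intact WT, 37.6%, was the highest of all members. Plastid counts as a whole were between 0.0182% and 0.0247% of the library in intact WT, between 0.0143% and 0.0219% in brc1-2 and between 0.0124% and 0.0169% after decapitation, and brc1-2 library 1, with the lowest ATCG00020 level, also had the lowest plastid share of its group. The part of this in its membership was not tested.

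For 9 nuclear members neither the files nor the reference give a symbol or a synonym used here as a name, and they are given by identifier alone. AT2G26355 was the most abundant, with 50.4, 51.1 and 49.6 CPM in intact WT, 17.0, 17.8 and 15.8 CPM in brc1-2, and 16.7, 15.7 and 15.2 CPM after decapitation. AT3G02480 (chromosome 3, 512220 to 513036) had the widest gap of all members, with 7.71, 7.49 and 6.98 CPM in intact WT, 0.673, 0.606 and 0.408 CPM in brc1-2, and 0.409, 0.584 and 0.506 CPM after decapitation. AT5G15500 had 8.48, 8.39 and 8.45 CPM in intact WT, 0.831, 0.570 and 0.343 CPM in brc1-2, and 1.45, 1.31 and 1.01 CPM after decapitation, and its decapitated libraries were all the higher. The others, AT1G34060, AT4G20820, AT3G27250, AT1G33102, AT2G21820 and AT3G59845, ran from 1.28 to 16.1 CPM on average in intact WT.

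**Figure D2:**
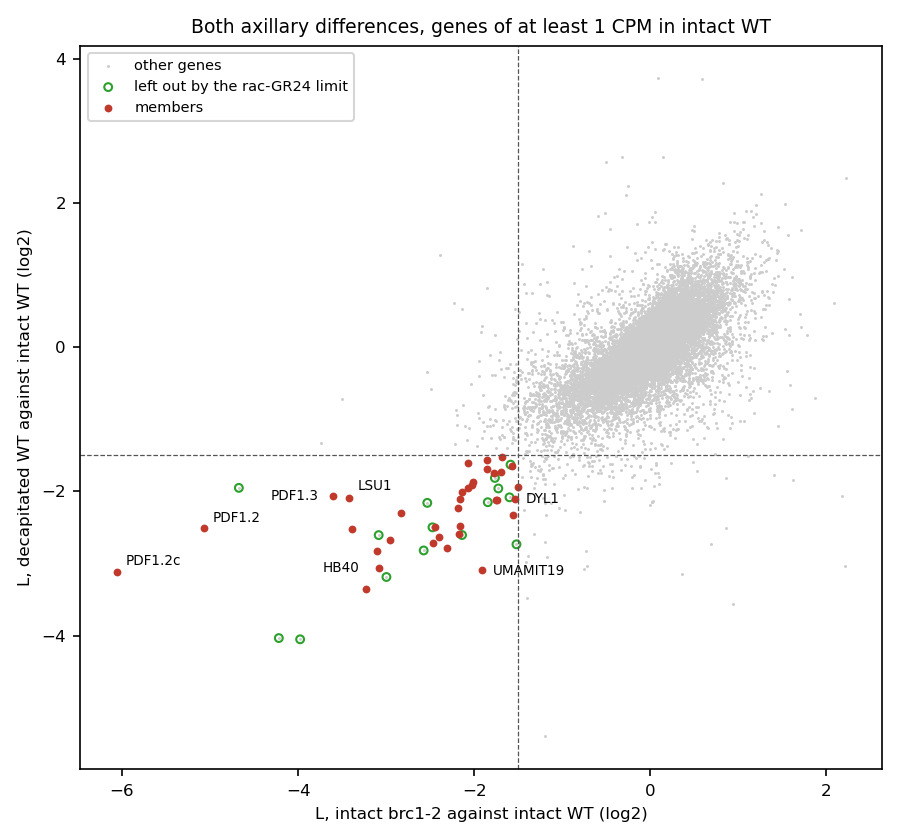
L in intact brc1-2 (horizontal axis, log2) against L in decapitated WT (vertical axis, log2), each against the same intact WT libraries, for the genes of at least 1 CPM in intact WT; dashed lines mark the limit of -1.5, red points are the 35 members and green circles the 15 genes left out for an L of 1 or more on rac-GR24. PDF1.2c, at -6.06 and -3.11, and PDF1.2, at -5.06 and -2.51, lie farthest to the left, and most members lie near the corner of both limits.

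The limits cut through a continuum. Just inside the L limit lay AT4G38340, whose larger L was -1.51, MSRB4 at -1.52 and DYL1 at -1.54, and just outside it lay ST4C at -1.45, GSTU4 at -1.44 and AT4G14270 at -1.44. At the rac-GR24 limit HB53 (0.92) and PDF1.3 (0.75) were kept, while DREB1A (1.03) and AT5G66780 (1.05) were not. At the CPM limit MYB24 (1.01 CPM) and DIR5 (1.126 CPM) were kept, and AT5G50360 (0.937 CPM) and AT5G05220 (0.850 CPM) were not.

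Decapitated WT and brc1-2 were also compared directly. The rule set no limit on this difference, but it took the values of both groups and so favours genes that were low alike in both. The difference was tested with edgeR's quasi-likelihood test across all genes, fitted on the 9 axillary libraries, at a Benjamini-Hochberg adjusted p under 0.05. Of 35 members tested, 9 were higher after decapitation than in brc1-2, 6 were lower and 20 did not pass. The called members were 42.9% of those tested, against 48.5% of all 21539 genes tested (24.4% higher and 24.1% lower) and their median log2 difference was 0.0027, against -0.0037 over all genes; with the rule shaping both groups, nothing is read from this share or median. The filter on low counts could be passed on the intact WT libraries alone, so the scarce members, such as ERF14, DIP2 and DIR5, were compared on few counts and could hardly be called.

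Defensins held the largest differences. Relative to brc1-2, decapitated axils had more PDF1.2c (log2 difference 3.14 ± 0.09 SE; edgeR adjusted p = 4.6e-21), PDF1.2 (2.59 ± 0.06; edgeR adjusted p = 5.02e-23) and PDF1.3 (2.54 ± 0.30; edgeR adjusted p = 4.09e-08), at n = 3 libraries per group. Each SE is the absolute log2 difference divided by the root of F. PDF1.2b differed by -0.38 ± 0.25 and did not pass (edgeR adjusted p = 0.219). LSU1 (1.44 ± 0.12; edgeR adjusted p = 6.12e-11) and AT5G15500 (1.12 ± 0.23; edgeR adjusted p = 0.000187) were also higher by over 1 on the log2 scale. PYD4 (0.52 ± 0.09), GolS2 (0.28 ± 0.08), XTH24 (0.26 ± 0.03) and HMT3 (0.12 ± 0.04) were higher by less, with edgeR adjusted p from 6.51e-08 to 0.00689; the call of GolS2 ended without decapitated WT library 2 (adjusted p = 0.162), the library that stood above the rest.

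Lower after decapitation than in brc1-2 were UMAMIT19 (-1.60 ± 0.25; edgeR adjusted p = 4.2e-06) and AT3G59845 (-2.35 ± 0.66; edgeR adjusted p = 0.00435), the latter on 20, 12 and 12 counts in brc1-2 against 2, 0 and 6. These counts of AT3G59845 are all even, as many low counts were here, so fewer independent fragments may stand behind them. DYL1 (-0.61 ± 0.07; edgeR adjusted p = 4.86e-08), HIS1-3 (-0.53 ± 0.12; edgeR adjusted p = 0.000572) and AT4G38340 (-0.48 ± 0.12; edgeR adjusted p = 0.00135) were lower as well. ORA59 was lower (-0.40 ± 0.12; edgeR adjusted p = 0.00642), but not without brc1-2 library 2a (adjusted p = 0.1). Neither the HD-ZIP genes nor NCED3 and ABI5 passed in either direction: HB40 differed by -0.03 ± 0.40, HB53 by 0.57 ± 0.42, NCED3 by -0.35 ± 0.25 and ABI5 by 0.04 ± 0.21, and a difference of the size seen for the small calls would not be detectable for them at these counts. GAMMA-VPE, which has the counts to show a small difference, was at 0.0027 ± 0.034.

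**Figure D3:**
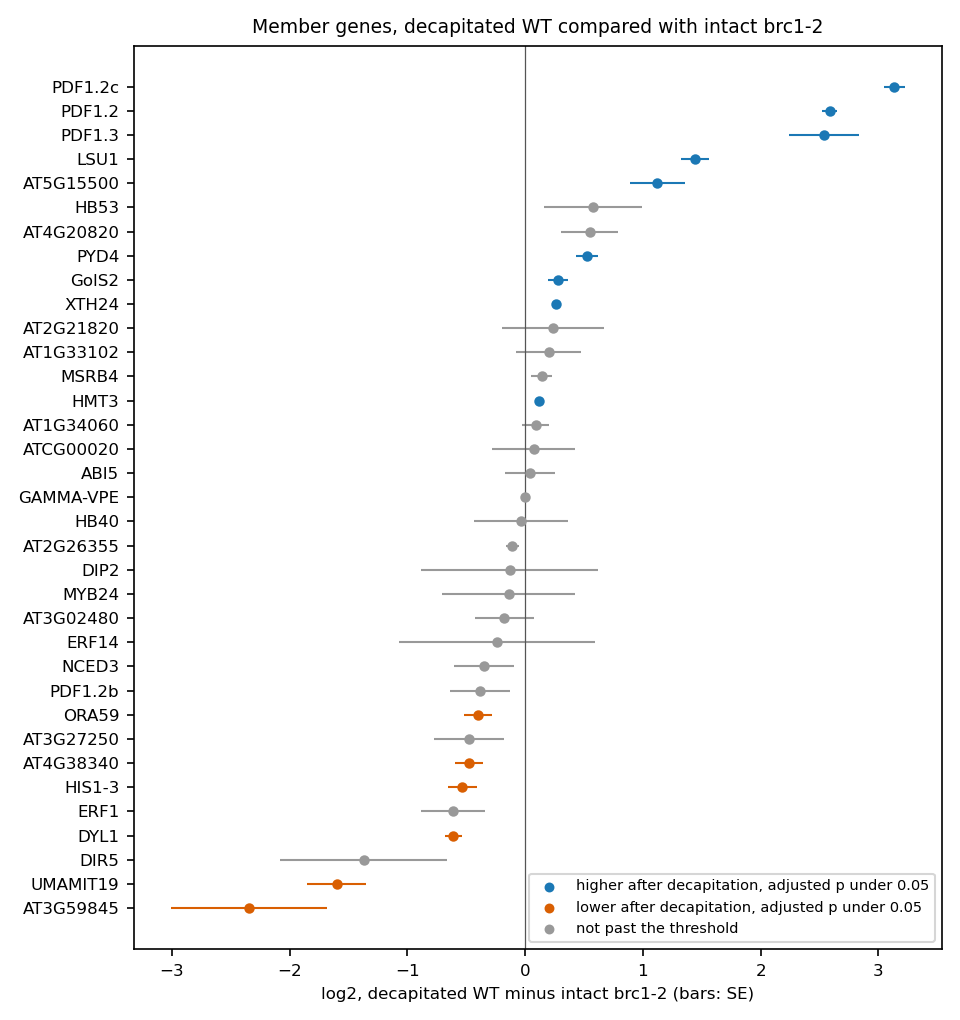
Log2 difference of each member between decapitated WT and intact brc1-2, with the SE as horizontal bars, ordered by size; blue and orange points passed edgeR's test at an adjusted p under 0.05 and grey points did not. PDF1.2c, PDF1.2 and PDF1.3 stand at the top between 2.54 and 3.14, and UMAMIT19 and AT3G59845 at the bottom at -1.60 and -2.35.

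The seedling libraries were also used by the rule, which removed genes with an L of 1 or more on rac-GR24, so the members' seedling values are a description. Of the 35 members 34 were in the seedling table and 27 had counts enough for edgeR's fit. In that fit 4 were called higher on rac-GR24 and 3 lower (25.9%), against 24% of all 21063 genes (12.4% higher and 11.7% lower), and nothing is read from this share. GAMMA-VPE had 96.9, 94.4 and 85.3 CPM on DMSO and 114, 117 and 122 CPM on rac-GR24, an L of 0.35. GolS2 had 4.72, 5.32 and 3.33 CPM on DMSO and 2.1, 3.08 and 1.80 CPM on rac-GR24, an L of -0.87. The rac-GR24 libraries were all above the DMSO libraries for GAMMA-VPE and all below them for GolS2. AT4G20820, also called higher, had 8.85, 8.59 and 7.16 CPM on DMSO and 9.92, 11.2 and 11.7 CPM on rac-GR24, an L of 0.40. PYD4, called higher as well, had 3.15, 3.33 and 5.13 CPM on DMSO and 5.82, 6.24 and 5.02 CPM on rac-GR24. Its L was 0.53, and its treatments overlap.

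HIS1-3 had 9.67, 10.2 and 8.55 CPM on DMSO and 6.01, 6.01 and 8.23 CPM on rac-GR24, an L of -0.47. AT4G38340 had 1.05, 0.993 and 1.08 CPM on DMSO and 0.358, 0.527 and 0.481 CPM on rac-GR24, also an L of -0.87. For both genes each rac-GR24 library was below each DMSO library, by a small margin for HIS1-3. The calls of both were lost when some single libraries were left out. HB53 stood at 0.175, 0.192 and 0.315 CPM on DMSO and at 0.692, 0.843 and 0.421 CPM on rac-GR24, with no overlap and an L of 0.92, close to the limit. At such levels the added 0.25 CPM makes L smaller, and edgeR's fit gave HB53 a log2 difference of 1.47 ± 0.47. The HD-ZIP relative of HB53, HB40 (L -0.12), overlapped between the treatments, and so did NCED3 (0.26) and ABI5 (0.57). The libraries of ABI5 ran from 0.180 to 0.408 CPM on DMSO and from 0.369 to 0.668 CPM on rac-GR24.

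The defensins were uneven among seedlings of 1 group. PDF1.2 had 2.97, 0.128 and 0.360 CPM on DMSO and 1.67, 1.63 and 0.601 CPM on rac-GR24, and PDF1.3 had 7.11, 1.28 and 1.85 CPM on DMSO and 7.78, 7.85 and 2.1 CPM on rac-GR24. DMSO library 1 stood above the other DMSO libraries for both. Without it the L of PDF1.2 on rac-GR24 was 1.65 and that of PDF1.3 was 1.76, both past the limit of 1, and PDF1.3 also passed it without rac-GR24 library 3 (1.14). The place of PDF1.2 among the members thus rests on DMSO library 1, and that of PDF1.3 on either of these libraries.

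Levels in seedlings and in axils were counted in separate tables, from tissues that carry different batch labels, so they are set side by side without a test. Mean CPM was lower in DMSO seedlings than in intact WT axils for 31 of 34 members, and for 59.8% of all genes of at least 1 CPM in those axils. The rule took members for being high in these same intact WT libraries, which favours this, so nothing is read from the share. HMT3 was at 1.96 CPM on DMSO against 157 CPM in intact WT axils, and PDF1.2 at 1.15 against 178 CPM. MYB24 had 0 counts in all 6 seedling libraries, which allows up to 3 counts in each if counts are independent of each other. The exceptions were NCED3, at 10.9 against 4.41 CPM, AT4G20820, at 8.20 against 4.11 CPM, and AT3G02480, at 8.14 against 7.39 CPM.

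**Figure D4:**
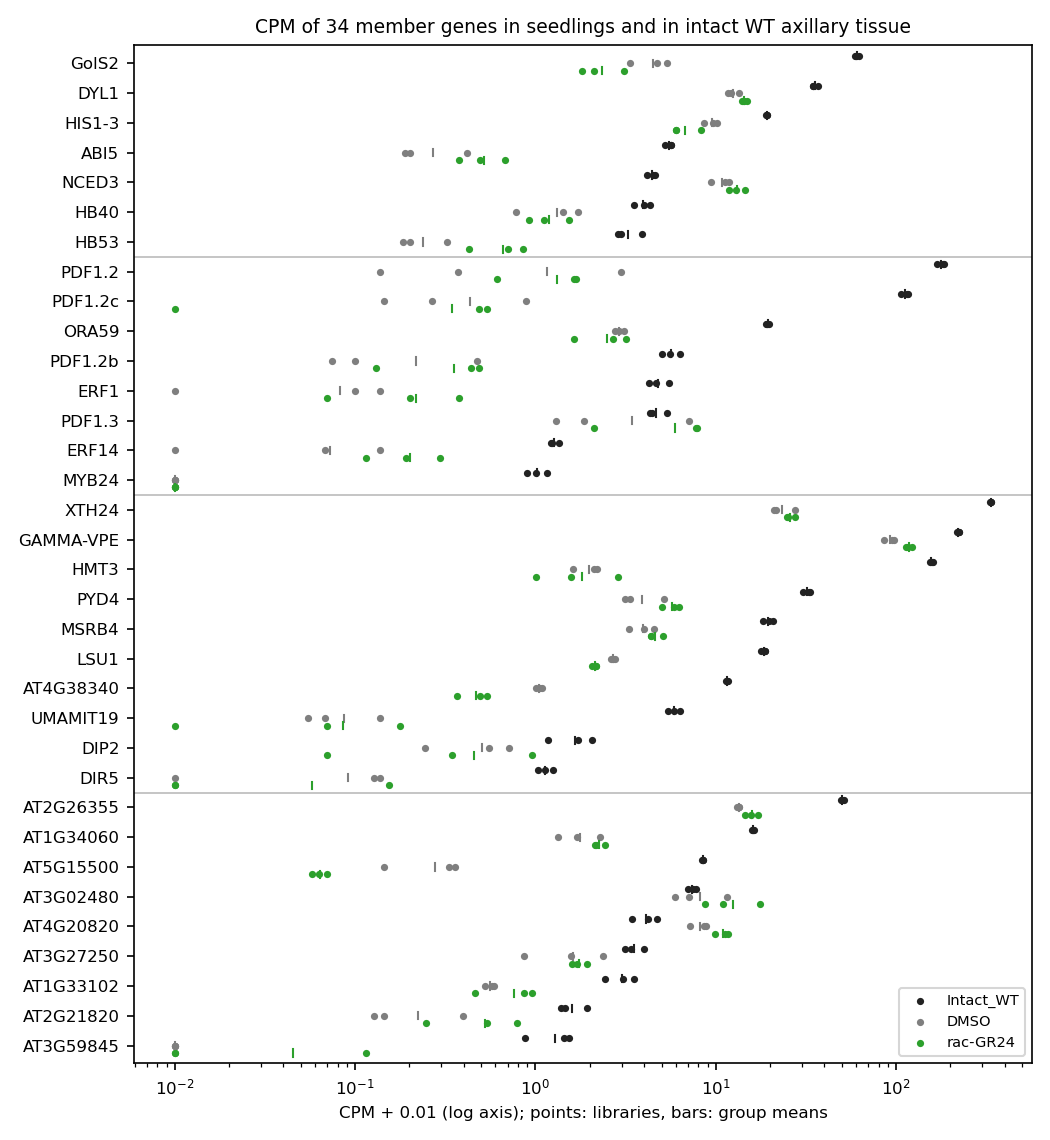
CPM of the 34 members in the seedling table, in DMSO (grey) and rac-GR24 (green) seedlings and, for reference, in intact WT axillary tissue (black), on a log axis after adding 0.01 CPM; points are libraries and vertical bars are group means. Black points lie to the right of the grey means except for NCED3, AT4G20820 and AT3G02480, and the grey points of PDF1.2 and PDF1.3 are widely spread.

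The members were short and scattered over the genome. Their median exon length was 1005 bases, against 1798 over all genes of at least 1 CPM, and 13 had a single exon. By chromosome, 8 lay on chromosome 1, 6 on chromosome 2, 8 on chromosome 3, 6 on chromosome 4, 6 on chromosome 5 and 1 on the plastid chromosome. Next to each other lay only PDF1.2 with PDF1.2c, 1211 bases apart on chromosome 5, and PDF1.3 with PDF1.2b, 1121 bases apart on chromosome 2, both in the same orientation. Of the 66 other genes that flank a member, 50 were tested and 19 of these (38%) were lower in both brc1-2 and decapitated WT, against 22.7% of all genes tested, and 0 of them reached an L of -1.5 in both. Among the 19 was AT5G40348, which shares exon bases with MYB24. Close relatives were among these flanking genes: LSU3 beside LSU1, with L of -1.57 and -1.33, MSRB5 beside MSRB4, with -1.92 and -1.26, and MSRB3, which lies 35 bases from MSRB4, with -0.59 and -0.45.

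Relatives of the members, some of them the flanking genes just named, were followed by family. In 11 families named after a member, 106 further genes were found by symbol, 82 were tested, and 31 (37.8%) were lower in both groups, beside the 22.7% of all genes. All 3 other LSU genes were lower in both, as were the 2 other galactinol synthase genes with counts, GolS1 (log2 difference -1.54 in brc1-2 and -0.52 after decapitation) and GolS3 (-1.13 and -0.42), and PYD1 and PYD2 of pyrimidine breakdown. GolS1 and GolS3 were higher after decapitation than in brc1-2, by 1.02 ± 0.03 (edgeR adjusted p = 3.06e-20) and 0.71 ± 0.09 (edgeR adjusted p = 2.24e-07), the direction in which GolS2 differed. NCED4 was lower in both (-1.57 and -1.28). The other families varied. Of 23 other XTH genes tested 2 were lower in both, of the 2 other HMT genes neither was, and of the 2 other PDF1 genes PDF1.4 was higher in both (1.43 and 2.31). Lower in both were also 16 of 35 other UMAMIT genes, 3 of 8 MSRB genes, 1 of 2 VPE genes and the 1 DIR gene tested.

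The pathways the members belong to were followed through lists of genes written from general knowledge with earlier results of these data in view, leaving the members out. Of 38 other abscisic acid genes tested, 31 were lower in brc1-2 and 0 higher, 34 were lower after decapitation and 1 higher, and 30 were lower in both. Over all genes tested, 30.4% were higher and 30.5% lower in brc1-2 (60.9% called), 29.4% were higher and 33.5% lower after decapitation (62.9% called), and 22.7% were lower in both. Among those lower in both were the PP2C genes HAI1 (log2 difference -1.78 in brc1-2 and -2.06 after decapitation) and PP2CA (-0.70 and -0.91), the dehydrin RAB18 (-1.42 and -1.83), the NAC factor RD26 (-1.12 and -1.02) and the transcription factor gene HB7 (-1.08 and -0.91). Of the 38, HAI1, AFP1, KIN2 and LEA4-5 were past both axillary limits and were kept out of the members only by the rac-GR24 limit. Their low levels in both groups are thus part of the choice and add nothing to it. In the direct comparison 21 of the 38 were lower after decapitation than in brc1-2 and 6 were higher, with a median log2 difference of -0.22. Over all genes tested, 24.1% were lower and 24.4% higher there. On rac-GR24, 25 of 40 of the abscisic acid genes were higher and 1, P5CS1, was lower, against 12.4% higher and 11.7% lower over all genes. The member list was cut for that direction. HAI1, AFP1, KIN2 and LEA4-5 stand among the 40 because of that cut, while the members NCED3 and ABI5 do not, so their part in this count follows from the choice.

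Of 23 dormancy and sugar starvation genes tested without DYL1, 13 were lower and 7 higher in brc1-2. After decapitation 19 were lower and 2 higher, and 13 were lower in both groups. Compared directly with brc1-2, 18 were lower and 2 higher after decapitation, against 24.1% lower and 24.4% higher over all genes tested. DRM2 had a log2 difference of -1.21 in brc1-2 and -3.06 after decapitation, and SEN1 was higher in brc1-2 (0.50) and lower after decapitation (-1.74). Over all genes tested, 30.5% were lower and 30.4% higher in brc1-2, 33.5% lower and 29.4% higher after decapitation, and 22.7% lower in both. Among jasmonate and ethylene defence genes other than the members, 9 of 15 were lower in brc1-2 and 2 higher. After decapitation 6 were lower and 4 higher, near the shares over all genes, with a median log2 difference of -0.093. In both groups 6 were lower and 2 higher. In the direct comparison 11 of these 15 were higher after decapitation than in brc1-2 and 2 lower. Among the higher ones were VSP2 (1.55), JAZ10 (1.42) and AOS (0.51). None of these is a defensin gene or a factor named above as binding defensin promoters, so nothing on that branch is read from them. Of the members, PDF1.2, PDF1.2c and PDF1.3 were higher. The member ORA59 was lower (-0.40), a call that ended without brc1-2 library 2a. ERF1 (-0.61), PDF1.2b (-0.38) and ERF14 (-0.24 ± 0.83) did not pass, and ERF14 changed sign without some single libraries. Leaf senescence genes were lower in 7 of 13 cases and higher in 2 in brc1-2, and lower in 11 and higher in 0 after decapitation. All 9 cell cycle genes listed were higher in both groups. Over all genes tested, 30.4% were higher in brc1-2 and 29.4% after decapitation, and the share higher in both was not counted.

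Axillary tissue is a mixture, and in bulk samples fewer cells of a type and less RNA per cell cannot be told apart. Markers of other cell types moved between the groups, in part in opposite directions. Beside their counts stand the shares over all genes tested. These were 30.4% higher and 30.5% lower in brc1-2, and 29.4% higher and 33.5% lower after decapitation. The 13 leaf photosynthesis markers summed to between 37490 and 37830 CPM in intact WT, between 48080 and 48430 CPM in brc1-2 (12 higher, 0 lower) and between 31410 and 31860 CPM after decapitation (1 higher, 12 lower). The 10 guard cell markers summed to 102 to 108 CPM, 151 to 156 CPM (9 higher) and 105 to 111 CPM (2 higher, 3 lower) in the same order. Flower and tapetum markers summed to 36.7 to 38.8 CPM, 77.2 to 81.6 CPM (13 of 14 higher) and 41.5 to 45.6 CPM (8 higher, 1 lower).

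Of the 6 marker lists, only phloem had a sum that was lower in every library of both groups than in every intact WT library. It was at 469.6 to 480.3 CPM in intact WT, 381 to 384 CPM in brc1-2 (2 higher and 3 lower of 9) and 384 to 397 CPM after decapitation (1 higher, 5 lower). A sum mostly follows its most abundant genes, and the median log2 differences of the phloem markers were small, at -0.131 in brc1-2 and -0.17 after decapitation. Secondary wall markers summed to 298 to 312 CPM, 316 to 323 CPM (6 higher and 2 lower of 15) and 223 to 226 CPM (14 lower). The markers of the shoot meristem and of the axil boundary, which should be present in axillary tissue, had counts in each group and summed to 297 to 300.3 CPM, 287 to 293 CPM (2 higher and 2 lower of 12 tested) and 288 to 308 CPM (2 higher, 5 lower). No listed marker of any cell type was at 0 in all axillary libraries. The part of these shifts in the low levels of the 35 members was not tested.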

How the data were processed

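The values are raw counts of RNA-seq reads per gene, which the authors deposited in separate tables for axillary tissue and for seedlings. The submitters' processing notes name HISAT2 2.0.5, featureCounts 2.0.1, fastp 0.23.1, cutadapt 3.5 and SAMtools 1.13, without roles, and the TAIR10 build. Coordinates are those of the deposited table, 1-based. Of the 23 samples, the 8 CUT&Tag samples were not analysed here. Among the axillary columns, 2 carry the label brc1-2 replicate 2, and they are called 2a and 2b. The seedling table gave 32224 complete genes, after 1 incomplete line was dropped, and 609 axillary genes were not in it.

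CPM was the count over the column sum. Differences were tested with edgeR 4.0.16 (R 4.3.3; TMM, filterByExpr with a minimum count of 10 and a total of 15, quasi-likelihood F test, Benjamini-Hochberg adjustment), in a single fit for the 9 axillary libraries (21539 genes) and in another for the 6 seedling libraries (21063 genes). The common biological coefficient of variation was 5.11% and 8.92%. The code was tested on simulated counts. All pairs of replicates differed by more than sampling noise, with each count taken as independent (chi-square over its degrees of freedom, 3.05 to 19.0). Among counts from 1 to 20, between 60.8% and 64.7% were even in axillary libraries and between 69% and 71.8% in seedling libraries. Low counts may thus rest on fewer independent fragments than their size, and the cause was not tested. DESeq2 1.42.0, other scalings, filters, pseudocounts and limits, the replicate block and each library left out were the alternatives.

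The members, the lists and the alternatives were chosen with earlier results of these data known. Genes are named where they stand in a list, are among the 12 most abundant or 12 lowest members, encode a transcription factor, passed a test, adjoin or resemble another member, or lie at a limit. Symbols and synonyms come from the RefSeq gene table of TAIR10.1, which matched 34 members by identifier. The relatives and the other genes left out by the rac-GR24 limit were named after their values were seen.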

Additional observations from a re-analysis of the deposited data

How the results depend on the processing

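The number of members was 35 with TMM scaling and with DESeq2 size factors, 216 with an L limit of -1 and 19 with -2. It was 27 (24 of them shared with the 35) with a pseudocount of 1 CPM, 41 (31 shared) with 0.05 CPM, 37 and 29 with a minimum of 0.5 and 2 CPM, and 50 without the rac-GR24 limit. Leaving out single libraries gave 32 to 38 members, and 25 of the 35 were kept whichever library was left out. Lost in at least 1 case were MSRB4, AT3G59845, MYB24, DYL1, AT4G38340, AT4G20820, PDF1.2, PDF1.3, AT2G21820 and HB53; HB53 passed the rac-GR24 limit without DMSO library 3 (L 1.06) or rac-GR24 library 3 (1.09).

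Without single libraries, between 9 and 10 members were higher and between 5 and 8 lower after decapitation than in brc1-2, and 13 of the 15 calls held under all alternatives. On rac-GR24, a contrast the rule used, the counts ran from 2 to 6 higher and from 1 to 3 lower, against 4 and 3. Of the 7 calls 2 held throughout, those of GAMMA-VPE and GolS2. Those of PYD4, HIS1-3, AT4G38340, AT4G20820 and HB53 were each lost without some single libraries. Only values of members that had not passed a test changed sign. Decapitated WT against brc1-2, the log2 differences without single libraries ran from -0.011 to 0.031 for GAMMA-VPE (-0.00455 with a minimum mean of 1 CPM), -0.37 to 1.14 for ATCG00020, -0.037 to 0.23 for AT1G34060, -0.14 to 0.21 for ABI5, -0.59 to 0.31 for HB40, -0.0092 to 0.44 for AT1G33102, -0.74 to 1.61 for DIP2, -1.15 to 1.87 for ERF14 and -0.45 to 0.41 for MYB24. On rac-GR24 they ran from -0.34 to 2.34 for PDF1.2, -0.64 to 0.16 for HMT3, -0.76 to 0.85 for PDF1.2c, -0.43 to 0.086 for HB40, -0.22 to 0.51 for AT3G27250 and -1.25 to 0.36 for DIP2. The cause was not tested.

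With the replicate number as a block in the seedlings, 4 members were higher and 3 lower, with the call of HB53 lost, and over all genes 2471 were higher and 2241 lower, against 2604 and 2456. Deviations of same-numbered seedling libraries correlated at 0.118, -0.0233 and -0.0905. These values cannot settle whether same-numbered samples were grown or prepared together, and the labels do not say. No paired analysis was possible for decapitated WT against brc1-2 because 2 of the brc1-2 columns carry the same number. Promoter motifs were not searched. For members of at most 20 counts in each library of both low groups, such as HB40, HB53 and ERF14, the depth limits what difference can be seen.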
